A study of Mus musculus with 6 samples.

Results

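Aminoacyl-tRNA synthetases join each amino acid to its transfer RNA, the step that fixes the meaning of the genetic code. Mammalian cells use a cytosolic set for the proteins of the nuclear genome and a separate set, encoded in the nucleus and imported, for the few respiratory chain subunits made inside mitochondria. Many cytosolic synthetase genes are known targets of ATF4, the transcription factor of amino acid and unfolded protein stress. The 35 genes described here were chosen by name, and all 35 were found by symbol among the 56691 gene identifiers of the deposited table. They comprise 19 cytosolic genes and 16 mitochondrial genes, the latter with symbols ending in 2. Kars and Gars each encode both the cytosolic and the mitochondrial enzyme and are counted as cytosolic.

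RNA sequencing compared 3 libraries of circulating tumour micro-emboli (CTM), clusters of tumour cells recovered with a capture chip from the blood of mice with breast cancer and lung metastasis, with 3 libraries of 4T1, a mouse mammary carcinoma line grown in culture. The titles of the 4T1 libraries name a low adherence culture, and their growth protocol names standard medium with serum. Neither mouse strain, age nor the number of mice or cultures behind a group is given, so the p-values reflect how far these libraries scatter, and that scatter may be technical. Growth in an animal, passage through blood and capture on the chip all separate the groups and cannot be told apart.

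Library totals of the deposited estimated counts ran from 69178212 to 71595766. Replicates 2 and 3 of each group were close to each other, and replicate 1 stood apart. The root mean square log2 difference over the tested genes was 0.265 between 4T1 replicates 2 and 3, and 0.597 and 0.606 between 4T1 replicate 1 and these libraries. In CTM it was 0.291 between replicates 2 and 3, against 0.406 and 0.436 with replicate 1. Of 6 epithelial markers, Krt8 and Krt18 were at 533 CPM or more in all 6 libraries, and Epcam, like the leukocyte gene Ptprc, was at or below 1.34 CPM. Krt8, Krt7 and Cdh1 were 1.36-fold, 3.17-fold and 3.99-fold lower in CTM and Krt19 was 2.86-fold higher (edgeR adjusted p of 0.00548, 0.00106, 0.0317 and 0.00906). Cdh1 was at 113 CPM in 4T1 replicate 1 and at 27.8 and 31.0 in replicates 2 and 3. The summed level of 7 platelet markers was 3.39 to 5.35 CPM in 4T1 and 8.13 to 11.5 in CTM, with Tubb1 at 0. Most of that rise was Itga2b, at 2.77 to 3.18 CPM in 4T1 and 6.63 to 9.16 in CTM. Gp1ba was also higher, at 0.709 CPM or less, and Pf4, Ppbp, Gp9 and Treml1 overlapped between the groups. The 6 erythroid markers summed to 1.56 to 2.89 CPM in 4T1 and 2.28 to 2.37 in CTM. The 10 leukocyte markers summed to 9.48 to 53.4 CPM in 4T1 and 15.0 to 24.8 in CTM, with Ly6g at 0. The 53.4 CPM was in 4T1 replicate 1, with Csf1r at 32.6 and S100a8 at 20.6 CPM. In 4T1 replicates 2 and 3 Csf1r was at 0.692 and 0.595 CPM and S100a8 at 8.21 and 9.42. Transcripts of 6 hepatocyte genes summed to 646 to 697 CPM in 4T1 and 197 to 590 in CTM. The part of such RNA in the results below was not tested. In bulk samples, fewer cells of a type and less RNA per cell cannot be told apart.

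Among the mitochondrial synthetase genes more were called lower than higher in CTM, and cytosolic genes were called in both directions. The difference between the compartments was not tested. Of the 16 mitochondrial genes 6 fell, 1 rose and 9 did not pass an edgeR quasi-likelihood adjusted p of 0.05, with a median log2 fold change (CTM over 4T1) of -0.56. Of the 19 cytosolic genes 3 fell, 2 rose and 14 did not pass, with a median of 0.00. Over all 16414 genes tested, 13.7% were lower and 14.2% higher, and the median was -0.02. With library totals alone as the scaling, the cytosolic calls were 4 lower and 1 higher, over a background of 16.6% lower and 11.6% higher. All 35 members passed the filter on low counts. All 3 CTM values lay below all 3 4T1 values in 8 mitochondrial and 4 cytosolic genes, against 23.5% of all genes. They lay above in 1 mitochondrial and 4 cytosolic genes, against 24.8% of all genes. The cytosolic counts are thus close to those of all genes.

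**Figure D1:**
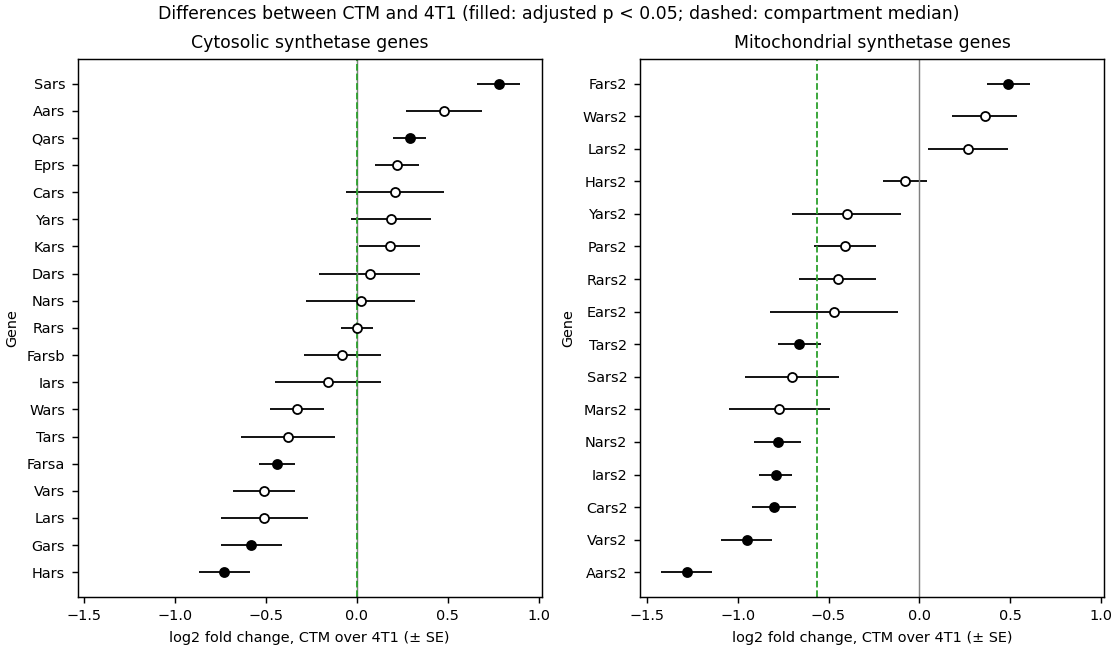
Log2 fold change between CTM and 4T1 (x axis, with its standard error) for each cytosolic (left) and mitochondrial (right) synthetase gene. Filled points passed an edgeR adjusted p of 0.05, and the dashed lines are the medians, 0.00 for cytosolic and -0.56 for mitochondrial genes.

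Among the mitochondrial genes, Aars2, the alanyl-tRNA synthetase of mitochondria, fell furthest. It was at 20.3, 19.2 and 18.0 normalised CPM in 4T1 replicates 1 to 3 and at 7.09, 7.96 and 8.67 in CTM. The groups were well apart, with a 2.42-fold lower mean in CTM (log2 fold change -1.28 ± 0.14 SE, edgeR adjusted p = 0.00132). Vars2, which charges mitochondrial tRNA with valine, was at 48.9, 48.0 and 53.1 CPM in 4T1 and 21.3, 27.7 and 28.8 in CTM. Every CTM library was below every 4T1 library, at a 1.93-fold difference (log2 fold change -0.95 ± 0.14 SE, edgeR adjusted p = 0.00347).

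Iars2, for isoleucine, was the most abundant mitochondrial member per kilobase in 4T1. Its values were 153, 149 and 143 CPM in 4T1 and 78.3, 86.9 and 91.6 in CTM, so it fell 1.73-fold with no overlap (edgeR adjusted p = 0.00163). In the GENCODE M21 annotation 22.9% of its exonic length overlaps exons of Rab3gap2 on the other strand. No strand-specific counting is stated, so the level of Iars2 is uncertain. Smaller overlaps on the other strand were annotated for Farsb (9.47%), Fars2 (8.72%), Vars2 (8.52%), Cars2 (5.83%) and some other members. Their levels carry the same uncertainty. Cars2, for cysteine, was at 19.2, 20.4 and 22.9 CPM in 4T1 and 12.2, 12.2 and 11.7 in CTM. Its CTM values were nearly equal and all lower, a 1.74-fold fall (edgeR adjusted p = 0.00441). Nars2, for asparagine, was at 15.2, 13.9 and 14.1 CPM in 4T1 and 7.65, 8.85 and 8.73 in CTM, 1.72-fold lower (edgeR adjusted p = 0.00621). Tars2, for threonine, was at 33.4, 38.5 and 36.8 CPM in 4T1 and 20.1, 24.2 and 24.6 in CTM, 1.58-fold lower (edgeR adjusted p = 0.00873). In both genes the groups did not overlap. These 6 falls passed in each of the 6 fits that left out a single library.

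Fars2, the mitochondrial phenylalanyl-tRNA synthetase, was the exception that rose. It was at 12.3, 13.8 and 14.1 CPM in 4T1 and 19.7, 18.0 and 18.8 in CTM, 1.40-fold higher (edgeR adjusted p = 0.0244). All CTM values were above all 4T1 values. The call was lost, with the same direction, in 4 of the 6 fits that left out a single library, at an adjusted p of up to 0.0745 against 0.0154 in the most favourable one, and with the replicate block (edgeR adjusted p = 0.0505). Of the members that did not pass, Mars2 and Pars2 were lower in every CTM library, at edgeR adjusted p of 0.08 and 0.123. Sars2, Ears2, Rars2, Yars2 and Hars2 had log2 fold changes of -0.70 to -0.08. Lars2 and Wars2 had 0.27 and 0.36, with CTM replicate 1 at 56.4 CPM against 96.1 and 102 in the other CTM libraries for Lars2, and at 11.6 against 17.0 and 16.9 for Wars2. Without CTM replicate 1, 3 mitochondrial genes were called higher, Fars2, Lars2 and Wars2, and 6 lower, beside 11.6% and 10.6% of all genes.

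**Figure D2:**
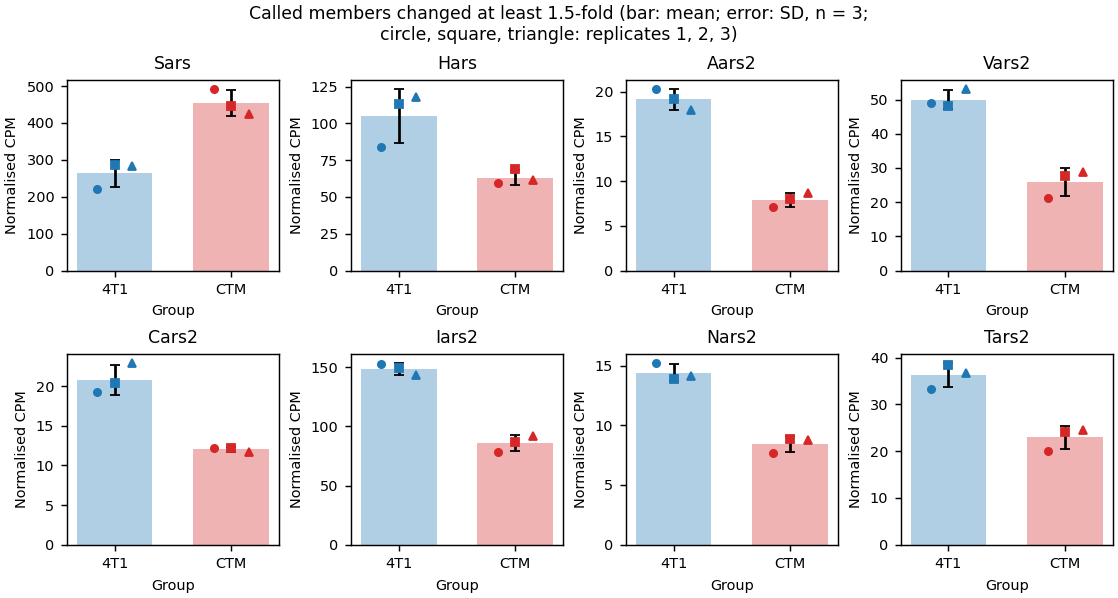
Normalised CPM of the 8 called synthetase genes that differed at least 1.5-fold, by group. Bars are means with SD (n = 3 each) and points are libraries. The groups do not overlap in any panel, and CTM is higher for Sars (425 to 492 against 222 to 287 CPM) and lower for the other genes.

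Of the cytosolic genes, Sars, the seryl-tRNA synthetase, rose furthest. It was at 222, 287 and 282 CPM in 4T1 and 492, 445 and 425 in CTM. All CTM libraries were higher, by 1.72-fold (log2 fold change 0.78 ± 0.12 SE, edgeR adjusted p = 0.00455), and the call held in all 6 fits that left out a single library. Its mitochondrial partner Sars2 was at 5.82, 9.26 and 10.1 CPM in 4T1 and 3.93, 5.64 and 5.85 in CTM. These values overlapped and did not pass (log2 fold change -0.70 ± 0.26 SE, edgeR adjusted p = 0.0896). Qars, the glutaminyl-tRNA synthetase, was at 267, 251 and 254 CPM in 4T1 and 341, 308 and 295 in CTM, 1.22-fold higher (edgeR adjusted p = 0.0465). This call was kept in only 1 of the 6 fits without a single library and was lost with size factors of DESeq2 (edgeR adjusted p = 0.052), library totals alone (0.1) or no filter on low counts (0.0585). Without the filter 7.56% of all genes were higher and 6.34% lower, and the cytosolic calls were 1 higher and 2 lower, Gars being lost as well. With a filter of 5 CPM in 3 libraries they were 2 higher and 4 lower, beside 21.1% and 20.8% of all genes.

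Hars, the histidyl-tRNA synthetase, fell furthest of the cytosolic genes. It was at 84.0, 113 and 118 CPM in 4T1 and 59.5, 68.7 and 61.3 in CTM. Each CTM library was lower, by 1.66-fold in the mean (log2 fold change -0.73 ± 0.14 SE, edgeR adjusted p = 0.0102). Hars2, which lies head to head with Hars, was at 20.2, 18.2 and 17.8 CPM in 4T1 and 17.2, 18.7 and 17.1 in CTM, with overlapping groups (edgeR adjusted p = 0.639). Their annotated exons overlap by 195 bases, so reads at their starts cannot be assigned without strand. Gars, for glycine, was at 143, 219 and 210 CPM in 4T1 and 117, 134 and 131 in CTM (log2 fold change -0.58 ± 0.17 SE, edgeR adjusted p = 0.04). Farsa, the catalytic subunit of the phenylalanine enzyme, was at 75.1, 71.8 and 71.9 CPM in 4T1 and 47.4, 56.3 and 58.0 in CTM, 1.35-fold lower (edgeR adjusted p = 0.021). In both genes the groups did not overlap, and Gars passed in 1 and Farsa in 2 of the 6 fits without a single library. Farsb, the other subunit of that enzyme, was at 40.0, 68.9 and 67.8 CPM in 4T1 and 52.9, 57.5 and 56.5 in CTM and did not pass (edgeR adjusted p = 0.8).

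For most of the other cytosolic genes, the 4T1 libraries differed more among themselves than the groups did. Nars, for asparagine, was at 155 CPM in 4T1 replicate 1 and at 361 and 360 in replicates 2 and 3. In CTM it was at 292, 304 and 292, which lies between them (log2 fold change 0.02 ± 0.30 SE, edgeR adjusted p = 0.969). Cars, for cysteine, was at 57.0, 121 and 117 CPM in 4T1 and 116, 108 and 118 in CTM. Iars, for isoleucine, was at 97.1, 216 and 224 CPM in 4T1 and 145, 168 and 166 in CTM. Neither passed, at edgeR adjusted p of 0.588 and 0.714, and in both genes 4T1 replicate 1 was the lowest library.

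Tars, for threonine, was at 75.8, 157 and 150 CPM in 4T1 and 87.6, 105 and 102 in CTM, and Vars, for valine, at 306, 460 and 461 in 4T1 and 308, 275 and 277 in CTM. Their edgeR adjusted p were 0.323 and 0.0578. Aars, for alanine, was at 163, 285 and 286 CPM in 4T1 and 321, 349 and 351 in CTM. Its groups did not overlap, yet the 4T1 spread was wide and it did not pass (log2 fold change 0.48 ± 0.21 SE, edgeR adjusted p = 0.134). In the annotation 14.3% of its exonic length is shared with Exosc6 on the same strand.

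The remaining cytosolic genes, Dars, Eprs, Kars, Lars, Rars, Wars and Yars, had log2 fold changes of -0.51 to 0.22 and did not pass. Rars, the arginyl-tRNA synthetase, was the steadiest of them, at 101 to 113 CPM in both groups. Kars, for lysine, was among the most abundant synthetases, at 339, 515 and 525 CPM in 4T1 and 530, 527 and 507 in CTM, and has an annotated processed pseudogene that could share its reads.

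**Figure D3:**
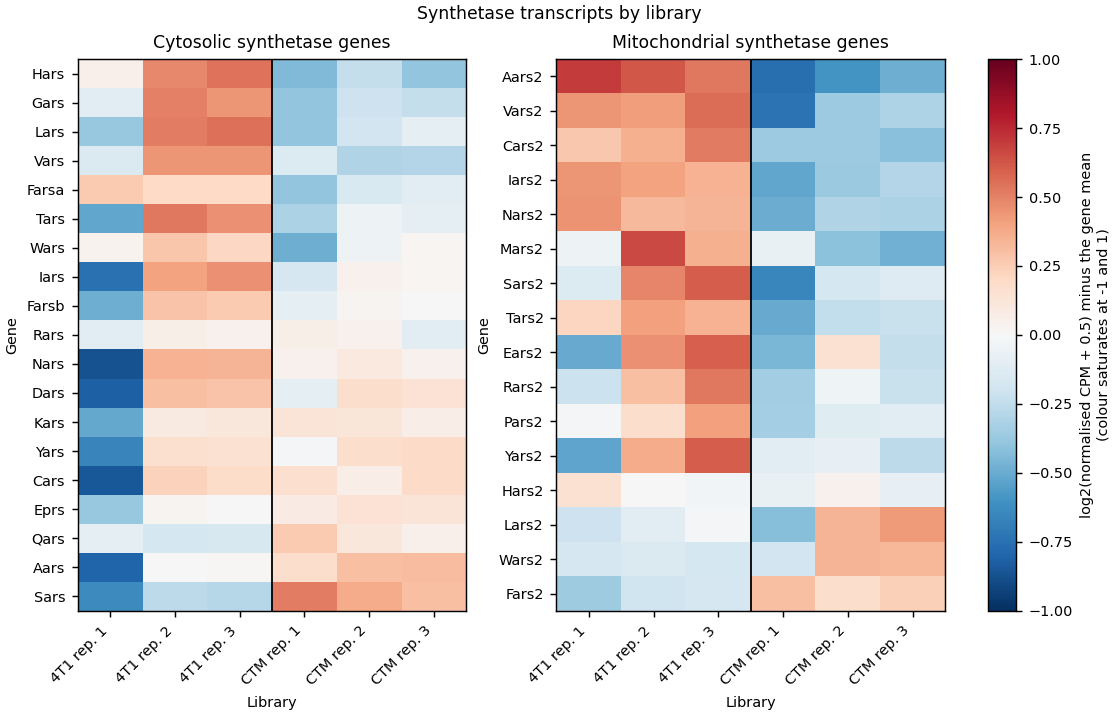
Log2(normalised CPM + 0.5) of each synthetase gene (rows, ordered by fold change) in each library (columns), as the difference from the gene's mean over the 6 libraries. 4T1 replicate 1 was the lowest library for 12 of 19 cytosolic genes. CTM replicate 1 was the lowest for 10 of 16 mitochondrial genes. The shares of all genes with these libraries lowest were not computed.

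4T1 replicate 1 had less cytosolic synthetase RNA than the other 4T1 libraries. It lay below both of them in 17 of 19 cytosolic genes and in 10 of 16 mitochondrial genes, compared with 45.5% of all tested genes. The ratio of replicate 1 to the mean of replicates 2 and 3 ranged from 0.429 for Nars to 1.06 for Qars among cytosolic genes, with a median of 0.651, and the median was 0.887 among mitochondrial genes. Summed over the 19 genes, the cytosolic level was 2598 CPM in 4T1 replicate 1, 3982 and 3978 in replicates 2 and 3, and 3637, 3707 and 3632 in CTM. The mitochondrial sum was 436, 460 and 471 CPM in 4T1 and 285, 359 and 366 in CTM. The cytosolic sums of the groups overlapped, and the mitochondrial sums did not. The largest part of the mitochondrial fall came from Iars2, whose level is uncertain, with means of 148 CPM in 4T1 and 85.6 in CTM.

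The direction of the cytosolic difference therefore rested on which libraries were compared. Between the libraries numbered 1, CTM was higher in 14 of 19 cytosolic genes (median log2 difference 0.40). Between the libraries numbered 2 and 3 it was lower in 14 of 19 (median -0.26), and 9 genes had opposite signs, 47.4% against 28.4% of all genes. For the mitochondrial genes both medians were negative, at -0.28 and -0.63. Without 4T1 replicate 1, 9 cytosolic genes were lower and 3 higher at an edgeR adjusted p below 0.05, and 12 mitochondrial genes lower and 1 higher, while 19.7% of all genes were called in each direction. Iars, Lars, Nars, Tars, Vars and Farsb then joined the lower cytosolic genes, and Aars joined the higher. Nars changed sign, at a log2 fold change of -0.29 and an edgeR adjusted p of 0.00713. Leaving out 4T1 replicate 2 or 3 or CTM replicate 2 or 3 left 1 cytosolic gene higher and 1 lower, Sars and Hars. In these 4 fits the higher share of all genes was 8.78%, 9.18%, 7.85% and 9.19%, and the lower share 8.31%, 8.42%, 7.11% and 7.62%, in that order. Leaving out CTM replicate 1 left 1 higher and 2 lower cytosolic genes, beside 11.6% and 10.6% of all genes. With replicates 2 and 3 of each group averaged as 1 sample, Aars2 alone of the 35 genes passed (edgeR adjusted p = 0.0489), when 1.66% of all genes were higher and 1.2% lower.

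**Figure D4:**
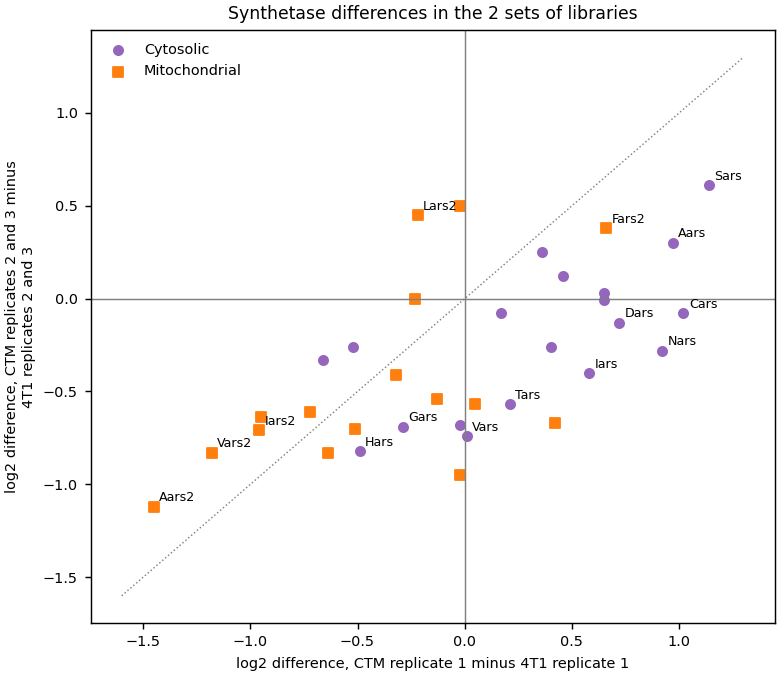
Log2 difference of each synthetase gene between CTM and 4T1 in the libraries numbered 1 (x axis) and in those numbered 2 and 3 (y axis), with equality on the dotted line. Of the cytosolic genes 9 lie to the right of 0 and below 0, among them Cars, Nars, Dars and Iars, whereas Aars2, Vars2 and Iars2 lie below 0 on both axes.

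A group of 12 cytosolic genes (Aars, Cars, Eprs, Gars, Iars, Lars, Nars, Sars, Tars, Vars, Wars and Yars) is known from work in human and mouse cells to be induced through ATF4. In 4T1 replicate 1 all 12 were lower than in both other 4T1 libraries, with ratios of 0.429 to 0.864 and a median log2 difference of -0.81, beside -0.45 for the other 7 cytosolic genes and -0.03 for all genes. In the comparison of CTM with 4T1, 1 of these 12 was called higher and 1 lower (median log2 fold change -0.07). Of the other 7, 1 was higher and 2 lower (median 0.00), beside 14.2% higher and 13.7% lower of all genes. Atf4 itself was at 71.0, 200 and 199 CPM in 4T1 and 209, 290 and 273 in CTM. It was above 4T1 in every CTM library without passing (log2 fold change 0.71 ± 0.37 SE, edgeR adjusted p = 0.196). Asns, the asparagine synthetase gene and a known ATF4 target, was at 39.4, 298 and 288 CPM in 4T1 and 128, 175 and 164 in CTM. In both genes 4T1 replicate 1 was the lowest library. The list of integrated stress response genes, which holds Atf4 and Asns, did not move as one. Of its 13 tested genes 9 were lower in 4T1 replicate 1 than in both other 4T1 libraries and 3 were higher. Of all 16414 genes tested, 7475 were lower and 6740 higher in that way. Nupr1, a stress-induced chromatin protein gene, was at 240 CPM in 4T1 replicate 1 against 28.3 and 26.8. Atf3 was at 13.8 against 5.56 and 6.91, and Ppp1r15a at 27.7 against 20.2 and 21.4.

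ATF4 binds the C/EBP-ATF response element (CARE). Promoters of 300 bases, 250 before and 50 from the gene start, were found for 26 of the 35 members in the RefSeq table of build GRCm38.p6. The letters TGATGNAA were searched on both strands and matched in 5 of 12 cytosolic and 0 of 14 mitochondrial members with a promoter, and in 3.97% of all 32851 promoters in the table. The 5 genes belong to the 12 ATF4-induced genes, of which 7 had a promoter, and that group is known partly through this element, so the match is no independent observation. None of the matches overlapped another motif searched. Of 6 matches in these genes 5 are shown, 1 for each gene. The windows of 30 bases, given 5′ to 3′ on the strand of the gene with the match in capitals, show where these letters sit.
Aars, chr8:111033840-111033869, plus strand: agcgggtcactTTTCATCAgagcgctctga
Gars, chr6:55037960-55037989, plus strand: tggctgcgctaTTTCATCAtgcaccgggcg
Iars, chr13:49682126-49682155, plus strand: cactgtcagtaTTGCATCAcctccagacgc
Tars, chr15:11399655-11399684, minus strand: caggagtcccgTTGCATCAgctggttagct
Yars, chr4:129189895-129189924, plus strand: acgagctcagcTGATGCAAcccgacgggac

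In Gars and Tars the match shown begins 30 and 15 bases before the RefSeq start. In Iars, Yars and Aars it begins at bases 8, 4 and 10 counted from that start. The match not shown lies in Aars, at -112 to -105 from the same start. GENCODE M21 places the gene starts of Aars, Yars, Iars and Tars further upstream and that of Gars further downstream. These positions therefore hold for the RefSeq starts only. The fold changes of these 5 genes between CTM and 4T1 ran from a log2 value of -0.58 for Gars to 0.48 for Aars. Their ratios of 4T1 replicate 1 to the mean of replicates 2 and 3 were 0.573 for Aars, 0.666 for Gars, 0.441 for Iars, 0.494 for Tars and 0.565 for Yars. Low ratios were not particular to genes with a match: Dars and Farsb, whose promoters hold no TGATGNAA, had 0.462 and 0.585, and Gars lay above the cytosolic median of 0.651. The 250 bases before the start of Sars and of Aars2 are shown for comparison. They are the cytosolic gene that rose furthest and the mitochondrial gene that fell furthest. RefSeq gives another start for Aars2, slightly downstream, and the 250 bases before it are not shown. None of these stretches holds any of the 5 motifs searched.
Sars, chr3:108445260-108445509, minus strand: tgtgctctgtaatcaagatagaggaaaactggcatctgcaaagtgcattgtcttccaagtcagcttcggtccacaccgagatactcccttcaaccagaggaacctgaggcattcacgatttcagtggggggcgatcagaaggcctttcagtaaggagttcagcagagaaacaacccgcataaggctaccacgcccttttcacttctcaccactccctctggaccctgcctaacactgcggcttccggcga
Aars2, chr17:45506582-45506831, plus strand: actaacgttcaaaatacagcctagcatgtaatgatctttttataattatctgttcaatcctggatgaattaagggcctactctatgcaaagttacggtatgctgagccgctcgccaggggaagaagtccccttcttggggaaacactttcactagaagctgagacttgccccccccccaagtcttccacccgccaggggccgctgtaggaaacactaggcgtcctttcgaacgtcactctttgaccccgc

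The other motifs searched, on both strands, were that of NRF1, a regulator of mitochondrial genes (GCGCA and GCGC around any 1 base), CCGGAAGT (bound by ETS factors), CACGTG (an E-box) and the cyclic AMP response element TGACGTCA. The first 3 matched in 2, 1 and 1 of the 14 mitochondrial promoters and in 3, 1 and 4 of the 12 cytosolic ones. In all promoters of the table the shares were 4.6%, 3.89% and 7.15%. TGACGTCA matched in 0 member promoters and in 1.79% of all promoters.

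Cytosolic and mitochondrial genes for the same amino acid were also set against each other within each library, as the log2 ratio of their normalised CPM. In 8 of 16 pairs the ratio was higher in every CTM library, in 4 it was lower in every CTM library and in 4 the groups overlapped. The pairs are not independent, since Farsa and Farsb share Fars2, and Eprs is set against both Ears2 and Pars2. The share of separated ratios over other gene pairs was not computed. Of single genes, 24.8% were higher and 23.5% lower in every CTM library. The median difference between CTM and 4T1 was 0.50. The Aars to Aars2 log2 ratio moved most, from 2.98, 3.86 and 3.95 in 4T1 to 5.40, 5.37 and 5.26 in CTM, a 3.36-fold higher ratio. The Sars to Sars2 log2 ratio was 5.14, 4.88 and 4.74 in 4T1 and 6.79, 6.18 and 6.06 in CTM, 2.69-fold higher. Both comparisons had clearly separated groups.

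The pairs for cysteine, asparagine, isoleucine, threonine, tyrosine and proline were the others with a higher ratio in every CTM library. For the pair of Eprs, the joint glutamyl and prolyl enzyme, with Pars2 the difference was 0.61. The lower ratios were those of Farsa and Farsb to Fars2 (differences of -0.91 and -0.52), Hars to Hars2 (-0.63) and Wars to Wars2 (-0.67). The exact two-sided permutation p was 0.1 for each separated pair, the smallest that 3 against 3 allows, and 0.133 after Benjamini-Hochberg adjustment over the 16 pairs, so no pair could pass 0.05.

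**Figure D5:**
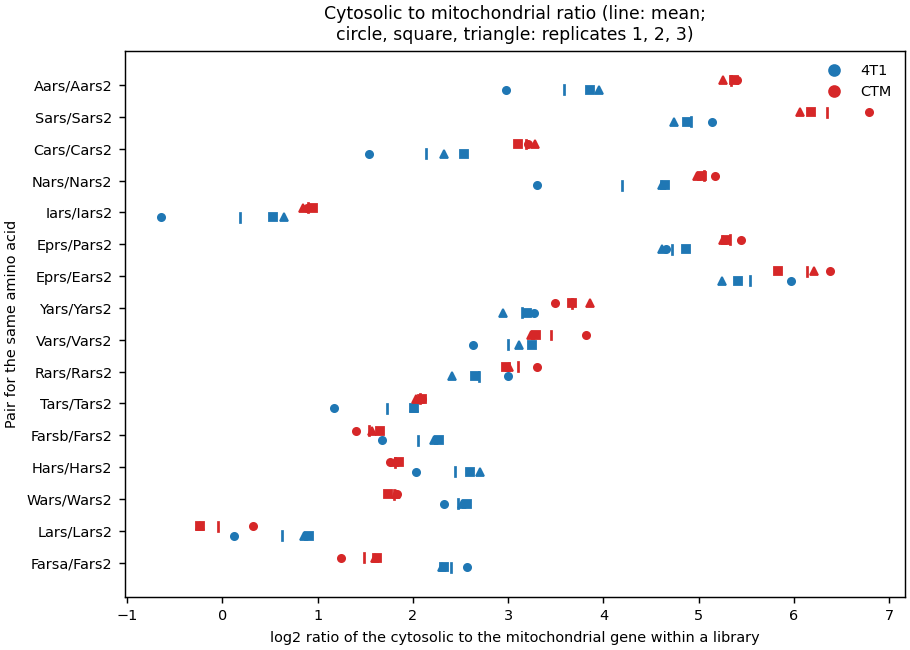
Log2 ratio of the cytosolic to the mitochondrial gene for the same amino acid within each library (points), with group means as short lines. The CTM ratio exceeds the 4T1 ratio in every library for 8 pairs, led by Aars to Aars2, and is below it for 4, led by Farsa to Fars2.

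Per kilobase of the longest coding transcript (GENCODE M21), cytosolic genes had the higher levels. Their group means ranged from 27.9 to 210 CPM per kilobase in 4T1 (median 51.6) and from 19.9 to 243 in CTM (median 51.6). Those of mitochondrial genes ranged from 0.334 to 27.1 in 4T1 (median 5.65) and from 0.195 to 21.8 in CTM (median 4.80). The lowest is Mars2, whose annotated transcript has 11.29 kilobases. Kars was highest in 4T1, at 210 ± 47.9 CPM per kilobase against 141 ± 19.3 for Sars (SD, n = 3 each). In CTM Sars and Kars were level within their spread, at 243 ± 18.4 and 238 ± 5.88 (SD, n = 3 each). Among mitochondrial genes the order turned from Iars2 (27.1 ± 0.873) above Lars2 (18.0 ± 1.16) in 4T1 to 15.7 ± 1.24 and 21.8 ± 6.38 in CTM (SD, n = 3 each), where the spread of Lars2 reaches down to Iars2.

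Within the cytosolic set, the 7 genes of the multisynthetase complex (Dars, Eprs, Iars, Kars, Lars, Qars and Rars), which holds synthetases together around scaffold proteins, gave 1 higher and 0 lower gene (median log2 fold change 0.07). The other 12 gave 1 higher and 3 lower (median -0.21). Of the 3 scaffold genes Aimp1 rose, from 69.7 ± 3.46 to 105 ± 5.65 CPM (SD, n = 3 each, edgeR adjusted p = 0.00363), and Aimp2 and Eef1e1 did not pass. By catalytic fold, the class I cytosolic genes gave 1 higher and 0 lower of 8, and the class II genes 1 higher and 3 lower of 10, Eprs having both folds. In mitochondria 3 of 9 class I and 3 of 7 class II genes were lower. Of all genes tested 14.2% were higher and 13.7% lower. These subsets are small, and the differences between them were not tested.

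Genes that work beside the synthetases were read from the same fit, in which 14.2% of all genes were higher and 13.7% lower. Of 13 tested integrated stress response genes 6 rose, none fell and the other 7 missed the threshold, for a median log2 fold change of 0.69. Ddit3, which encodes CHOP, was 18.2-fold higher, Ppp1r15a, which restores initiation, 4.83-fold and Sesn2 2.54-fold higher. Eif2ak4, the kinase that senses uncharged tRNA, was at 44.0 ± 5.84 CPM in 4T1 and 43.3 ± 5.22 in CTM (SD, n = 3 each, edgeR adjusted p = 0.919). Of 13 mitochondrial translation factors and tRNA amidation genes 3 fell, 1 rose and 9 did not pass (median -0.29). The falls were Tsfm and Tufm, partner elongation factors, by 1.91-fold and 1.36-fold, and Gfm1 by 1.39-fold, while the recycling factor gene Mrrf rose 1.68-fold. Of 11 genes of mitochondrial tRNA processing only Trmt5, a tRNA methyltransferase, passed, 1.55-fold lower (median -0.21).

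Of 18 genes of nuclear tRNA synthesis, splicing and export 5 fell, 1 rose and 12 did not pass (median -0.14). The RNA polymerase III subunit gene Polr3e was 2.66-fold lower, the tRNA splicing gene Tsen34 1.68-fold lower, and Gtf3c2 1.49-fold lower. Polr3b fell as well, and Polr3a rose. Of 6 genes of tRNA editing and quality control, Aarsd1, which encodes an editing domain like that of the alanine enzyme, fell 2.37-fold, and Gtpbp2, a factor for stalled ribosomes, and Prorsd1 rose 1.51-fold and 2.03-fold. Of 5 genes of the selenocysteine pathway Sepsecs rose 1.57-fold and Eefsec fell 1.68-fold. Of 6 cytosolic elongation factor genes Eef2 and Eef1d each rose 1.28-fold and none fell. The edgeR adjusted p of the genes named as changed in these lists lay below 0.05. Beside these counts, 14.2% of all genes tested were higher and 13.7% lower, and no list was tested as a set.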

How the data were processed

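Per the labels' protocols, a SMART-Seq kit for very small inputs made the 3 CTM and 3 4T1 libraries. HISAT2 2.0.4, Bowtie 0.12.2, edgeR and build mm8 appear in the submitters' processing notes without a stated role. The sources used here do not name the counting tool or annotation. The authors deposited estimated counts per Ensembl gene, which were already whole numbers. Low values pile up at multiples of 4 (956 genes at 4, against 391 at 3, in 4T1 replicate 1), so counting error may exceed what the totals imply. Plain counts had been assumed and the planned test was kept.

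Symbols were found for 52073 of 56691 identifiers. Genes passing filterByExpr (16414) were fitted to all 6 libraries without a block by the edgeR 4.0.16 quasi-likelihood test (R 4.3.3), two-sided, with TMM scaling and Benjamini-Hochberg adjustment over all of them. Standard errors are the log2 fold change over the root of F. On simulated data the test recovered the simulated folds and made few false calls, but it called fewer of the strongly changed genes than a first criterion required. That criterion was then replaced, after the outcome was seen, by one on the recovered folds and false calls, so genes that did not pass may still differ. CPM use the TMM-scaled library sizes, and pair ratios add 0.5 CPM. The rule gave values in every library to members that passed with at least a 1.5-fold difference and to their partners. Those of other members were added after their values were seen. Of each companion list, up to 4 genes with the smallest p are named (a few items are not reported here), plus Atf4, Ddit3, Asns and Eif2ak4. A few further genes were chosen for naming after their values were seen, where a small count called for it. Atf3, although among those of smallest p in its list, rose 9.46-fold. Members, lists and alternatives were chosen with earlier results of these data known, and the promoter motifs and splits by function or library number with their values in view. Sequences come from RefSeq (GRCm38.p6), while positions and lengths of genes come from GENCODE M21 (GRCm38), neither being the named build.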

Additional observations from a re-analysis of the deposited data

How the results depend on the processing

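The alternatives were DESeq2 1.42.0, its size factors in edgeR, library totals alone, no filter, 5 CPM in 3 libraries, a replicate block, counts divided by 4, replicates 2 and 3 averaged, both libraries numbered 1 left out, and each library left out in turn. No called member changed sign in any of them. Leaving out both libraries numbered 1 gave 4239 genes higher and 4340 lower over all genes (25.6% and 26.2%). It gave 4 and 11 cytosolic, 3 and 12 mitochondrial, and 19 and 31 companion genes. Averaging replicates 2 and 3 gave 276 and 200 over all genes (1.66% and 1.2%), 0 and 0 cytosolic, 0 and 1 mitochondrial, and 4 and 0 companion genes. Leaving out one library gave 1334 to 3323 higher (7.85% to 19.7%) and 1208 to 3326 lower (7.11% to 19.7%) over all genes. Those fits gave 1 to 3 and 1 to 9 cytosolic, 0 to 3 and 6 to 12 mitochondrial, and 9 to 16 and 6 to 24 companion genes. Among those fits the fewest calls over all genes came without CTM replicate 2 and the most without 4T1 replicate 1. With size factors of DESeq2, library totals alone or no filter, 1 cytosolic gene was higher, beside 14.1%, 11.6% and 7.56% of all genes. DESeq2 called 19 companion genes lower, against 11, and 18.9% of all genes lower, against 13.7%. Without both libraries numbered 1, Dars and Nars turned to log2 fold changes of -0.13 and -0.28 and Nupr1 to 1.46. Leaving out one library, Nars ranged from -0.29 to 0.20 and Nupr1 from -0.80 to 1.48, the sign turning without 4T1 replicate 1. Apart from the averaged fit with fewer samples, the cause of these changes was not tested. The median log2 fold change stayed between -0.29 and 0.06 for cytosolic and between -0.73 and -0.42 for mitochondrial genes, and the median pair difference between 0.36 and 0.55. Deviations of same-numbered libraries from their group means had correlations of 0.123, 0.071 and 0.038. Between differently numbered libraries they ran from -0.121 to 0.129, so this check does not settle whether the numbers pair the samples. 4T1 replicate 3 correlated best with CTM replicate 2. With the replicate block, 2 cytosolic genes were higher and 3 lower, and 0 mitochondrial genes higher and 7 lower. The background was 2232 higher and 2065 lower (13.6% and 12.6%). Dividing the counts by 4 left Mars2 at -0.76 and Ears2 at -0.46, against -0.77 and -0.47, and neither passed in either fit.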
